A study of Mus musculus with 2 samples.

Results

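The regions described here are those that the authors' lists of Smyd2 chromatin immunoprecipitation sequencing (ChIP-seq) tie to a named gene. They are the rows with a gene in the gene column, that is, with an orientation other than "Not found". They numbered 100 of 187 rows in the list from Pkd1 wild-type cells and 133 of 235 rows in the list from Pkd1 null cells, 233 of 422 in all. The remaining 87 and 102 rows, for which no gene was found, served as background.

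Both libraries came from cultured renal epithelial cells called MEK cells, from embryonic kidney of the C57BL/6 strain, grown in a medium that contained interferon-gamma. One library was from cells with the Pkd1 wild-type genotype and 1 from cells with the genotype Pkd1null/null. Chromatin of sonicated nuclei was precipitated with the same lot of an anti-Smyd2 antibody in both. Each genotype had 1 library and no input or control-antibody library was analysed here, so no value has replicate error, every comparison is between 2 lists, and intervals cover counting error only. Whether each culture was 1 clone is not given in the sources used here.

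Smyd2 is a lysine methyltransferase of the SET and MYND domain family. It methylates histones and also soluble proteins, among them p53, the retinoblastoma protein, STAT3 and the p65 subunit of NF-kB, and it has no DNA-binding domain that is known to read a sequence, so its place on chromatin is thought to depend on partner proteins. Pkd1 encodes polycystin-1, a large membrane protein of the primary cilium and of cell contacts whose loss causes dominant polycystic kidney disease.

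Few of the assigned regions lay at a gene start known here, and those that did are shown first because a start is where a transcription target would be looked for. The genes of 166 of the 233 assigned regions had a known start, so regions at a start of the other genes are not counted. Among those not counted, the null regions of Slc14a1 and Lce1f reached past an edge of the gene. Of the 32851 start windows in the RefSeq promoter table (GRCm38.p6), the 250 bases before and 50 after a start, 10 assigned regions touched at least 1 (4 of the wild-type rows and 6 of the null rows). In 8 of the 10 the start belonged to the gene that the authors named. The other two lay in windows of a neighbour, Camk2n2, which encodes an inhibitor of calcium/calmodulin kinase II (region assigned to Ece2, 14 reads), and the non-coding A330041J22Rik (region assigned to Me1, 14 reads). Neither region covered the neighbour's start itself.

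The 250 bases before the start are printed below for the 5 genes whose region covered their outermost start and at least 150 of those bases. Letters run 5′ to 3′ on the gene's strand, are credited to RefSeq (GRCm38.p6), and capitals mark matches to 6 motifs searched on both strands, with overlaps allowed: the GC box GGGCGG, the CCAAT box CCAAT, the TATA box TATAAA, the STAT site TTCNNNGAA, the cAMP response element TGACGTCA and the E-box CACGTG.
Ttll13: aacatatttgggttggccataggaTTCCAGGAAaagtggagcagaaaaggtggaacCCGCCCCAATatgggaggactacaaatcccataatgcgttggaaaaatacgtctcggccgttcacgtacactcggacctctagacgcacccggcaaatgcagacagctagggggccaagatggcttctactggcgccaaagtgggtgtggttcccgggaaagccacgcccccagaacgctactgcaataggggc
Hook2: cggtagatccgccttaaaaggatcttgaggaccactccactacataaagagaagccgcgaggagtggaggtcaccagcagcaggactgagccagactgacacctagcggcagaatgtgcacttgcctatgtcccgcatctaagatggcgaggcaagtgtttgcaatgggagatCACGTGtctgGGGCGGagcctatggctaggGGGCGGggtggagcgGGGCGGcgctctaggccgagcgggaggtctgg
Sema4b: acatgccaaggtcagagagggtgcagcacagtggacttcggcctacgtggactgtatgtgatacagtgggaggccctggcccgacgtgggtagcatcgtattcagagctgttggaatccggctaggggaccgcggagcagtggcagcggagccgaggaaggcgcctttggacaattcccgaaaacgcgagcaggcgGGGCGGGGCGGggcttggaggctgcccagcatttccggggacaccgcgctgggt
4921507P07Rik: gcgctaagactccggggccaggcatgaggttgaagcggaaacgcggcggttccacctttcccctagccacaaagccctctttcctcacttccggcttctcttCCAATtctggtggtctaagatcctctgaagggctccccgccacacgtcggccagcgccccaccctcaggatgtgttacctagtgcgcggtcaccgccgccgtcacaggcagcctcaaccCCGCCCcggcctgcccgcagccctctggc
Arhgdia: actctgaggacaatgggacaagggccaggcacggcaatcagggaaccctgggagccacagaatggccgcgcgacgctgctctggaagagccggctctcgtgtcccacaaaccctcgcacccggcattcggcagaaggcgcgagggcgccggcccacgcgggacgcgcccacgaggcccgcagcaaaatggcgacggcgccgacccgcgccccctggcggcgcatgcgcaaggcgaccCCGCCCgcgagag

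Ttll13 encodes a tubulin tyrosine ligase-like enzyme. Its window, chr7:80246126-80246375 on the plus strand, lay wholly inside a wild-type region of 14 reads (chr7:80246101-80246850) and held 1 GC box and 1 CCAAT box that share bases, and 1 STAT site. Hook2 encodes a linker between microtubules and organelles. A wild-type region of 12 reads (chr8:84990451-84991050) covered 172 bases of its window, chr8:84990373-84990622 on the plus strand, which held 3 GC boxes and 1 E-box. Sema4b, a membrane semaphorin gene, had a null region of 15 reads (chr7:80186401-80187150) over the whole window, chr7:80186620-80186869 on the plus strand, with 2 GC boxes. The window of 4921507P07Rik, chr6:50596591-50596840 on the minus strand, lay in a null region of 13 reads (chr6:50596201-50596950) and held 1 GC box and 1 CCAAT box. Arhgdia encodes a GDP dissociation inhibitor of small GTPases. Its window, chr11:120581625-120581874 on the minus strand, lay in a null region of 16 reads (chr11:120581551-120582450) and held 1 GC box.

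All 5 windows shown held a GC box, while the windows at the outermost start of the other 3 genes with a covered start held none, so 5 of 8 did. Of the other motifs searched, 3 appeared in at least 1 of the 5. Over all 32851 windows the same 250 bases held a GC box in 32.7%, a CCAAT box in 33.8%, a TATA box in 12.4%, a STAT site in 7.02%, a cAMP response element in 1.55% and an E-box in 6.02%. The 5 windows had a GC content of 54.8% in Ttll13, 60.4% in Hook2, 64.4% in Sema4b, 65.2% in 4921507P07Rik and 72.0% in Arhgdia, against a median of 52.4% (quartiles 45.2 and 61.2) over all windows. CpG dinucleotides numbered 13, 15, 20, 19 and 33 in the same order, against a median of 6 (quartiles 2 and 16). These matches describe letters and not bound sites. The remaining regions at an own start were in the null list: Accs, an aminotransferase-like gene (13 reads), Cyp2j9, a cytochrome P450 gene (16 reads), and Slc22a19, an organic anion transporter gene (12 reads). Their regions covered 107, 115 and 40 of the 250 bases before the outermost start. These 3 windows had a GC content of 45.2%, 52.0% and 35.6% in the same order, all below that of the 5 shown and below the median of all windows, with 6, 4 and 0 CpG dinucleotides.

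One region overlapped a microRNA. The null region assigned to Rasgef1a, a Ras exchange factor gene (chr6:118085251-118086000, 12 reads), overlapped the end of mmu-miR-7044-3p at chr6:118085243-118085263 on the plus strand (RefSeq, GRCm38.p6), shown with its seed, bases 2 to 8, in capitals.
mmu-miR-7044-3p: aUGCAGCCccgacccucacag

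Most assigned regions overlapped their gene, and most of those with a known start lay over 5 kb from it. The authors gave the orientation as overlapping for 94 of the 100 rows from wild type and 126 of the 133 rows from null. The rest, 6 and 7 regions, were beside a gene, at most 1947 bp away by the authors' distance. The share beside a gene was 6.00% in wild type (interval 2.78 to 12.5) and 5.26% in null (interval 2.57 to 10.5) and did not pass Fisher's exact test between the lists (two-sided p = 1, Benjamini-Hochberg adjusted p = 1 over the 7 comparisons made).

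A start was given in the promoter table for the genes of 166 of the 233 assigned regions. The median gap from region to nearest start of its own gene was 25.9 kb in the wild-type list (quartiles 7.70 and 95.3, 73 regions) and 21.9 kb in the null list (quartiles 6.12 and 60.6, 93 regions). Within 1 kb of a start lay 6 regions from wild type (8.22% of 73) and 11 from null (11.8% of 93), and a start was covered by 2 and 6. Beyond the 8 regions at a start, those within 1 kb were in the wild-type list Ctnnb1, the beta-catenin gene (12 reads, ending 400 bp before the start although the authors gave it as overlapping), Dnaja4, a co-chaperone gene (16 reads), Me1, a malic enzyme gene (14 reads), and Ndel1, a dynein regulator gene (12 reads). In the null list they were Rnd3, an atypical small GTPase gene (13 reads), Rtf1, which encodes a transcription elongation factor (13 reads), Col7a1, a collagen gene (13 reads), Bcdin3d, an RNA methyltransferase gene (12 reads), and Mxi1, which encodes a MAX partner that opposes MYC (18 reads). More than 50 kb away lay 27 wild-type and 30 null regions, the farthest at Pde4d, a cAMP phosphodiesterase gene, 1292 kb from its nearest start. Each gene of known strand was cut into 4 equal stretches from start to end. Of the 155 regions inside such a gene, 45, 32, 49 and 29 fell in them in turn. By list the counts were 18, 16, 22 and 15 in wild type and 27, 16, 27 and 14 in null. The stretch that begins at the start thus tied for the most in null, and these differences were not tested.

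**Figure D1:**
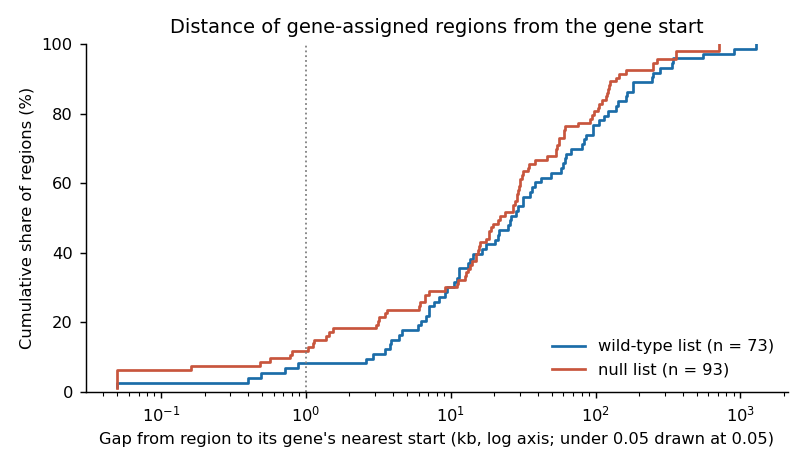
Cumulative share of gene-assigned regions (vertical, %) by the gap in kb from the region to the nearest annotated start of its own gene (horizontal, log axis), for 73 wild-type and 93 null regions; gaps under 0.05 kb are drawn at 0.05. The dotted line marks 1 kb, within which lay 8.22% of wild-type and 11.8% of null regions.

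Where the strand was known, the regions beside a gene showed what the authors' orientation words refer to. The strand was known for 5 of the 13, and the given distance equalled the gap to the gene's edge or start in the RefSeq tables in all 5. The 4 labelled downstream (Bcdin3d at 771 bp, Mxi1 at 806 bp, 4930579D09Rik at 1143 bp and the olfactory receptor gene Olfr365 at 1543 bp) lay on the 5′ side of the nearest start. For Olfr365 that is an inner start, and the region lay inside the gene's RefSeq span, 69.2% along it. The 1 labelled upstream, 1700061I17Rik at 1272 bp, lay on the 3′ side of the gene. In these 5 regions the word therefore states where the gene lies from the region, and downstream marks a region before a start. The strand of the other 8 was not in the tables used, and 2 of them, Olfr449 and Xkr5, lay inside the gene's RefSeq span. Over all 13 regions the given distance equalled the gap to the edge or a known start in 7. Ly6a, given at 417 bp, lay 20 bp from the gene's edge, and Socs5, given at 429 bp, lay 28 bp from it. What the words mean for these 8 is therefore not known. Among the 8 were the GATA factor gene Gata6 (60 bp, labelled downstream, 16 wild-type reads), Ly6a, a surface antigen gene (417 bp, labelled downstream, 15 null reads), Socs5, a suppressor of cytokine signalling gene (429 bp, labelled downstream, 11 wild-type reads), Olfr449 (552 bp, labelled downstream, 19 wild-type reads), Elovl3, a fatty acid elongase gene (1947 bp, labelled downstream, 16 wild-type reads), and Xkr5 (1079 bp, labelled upstream, 28 null reads). None of the 13 overlapped a region of the other list, where 16.6% of all wild-type and 13.2% of all null regions did. With 13 regions this does not set them apart.

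The assigned genes were longer than most genes. Of the 233 rows, 219 matched a gene of the RefSeq table (16 of them by an older symbol), and 210 of those were protein coding (93 wild-type and 117 null regions). Long non-coding RNA genes had 1 and 7 regions, a pseudogene had 1 in wild type, and 5 and 9 rows named a gene that was not matched. The median length of the assigned protein-coding genes was 97.7 kb in the wild-type list (quartiles 33.1 and 239, 93 genes) and 103 kb in the null list (quartiles 36.2 and 237, 116 genes), against 17.2 kb (quartiles 5.67 and 44.3) over all 21887. Genes of 100 kb or longer made up 48.4% and 50.9% of the assigned genes and 11.1% of all genes. When each gene was weighted by its length, which gives the lengths met by a point placed evenly over gene spans, the median was 138 kb and the share of 100 kb or longer was 59.2%. The assigned genes thus lay between the plain and the length-weighted distribution, closer to the latter. The longest were Cntnap2, a neurexin-family adhesion gene (2241 kb, 14 wild-type reads), Lrp1b, a lipoprotein receptor-related gene (2058 kb, 20 wild-type reads), Dlg2, a synaptic scaffold gene (1973 kb, 12 null reads), and Fhit, a gene at a common fragile site (1612 kb, 14 null reads). The shortest was Taar4, a trace amine receptor gene (1.04 kb, 11 null reads).

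**Figure D2:**
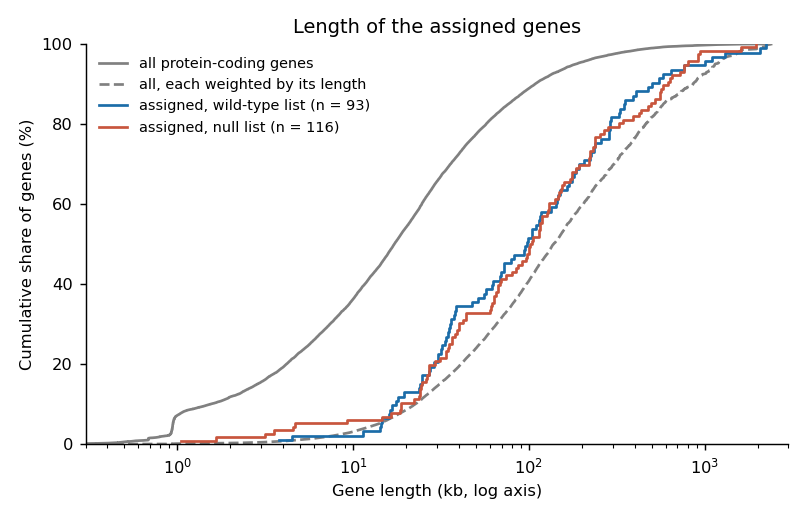
Cumulative share of genes (vertical, %) by gene length in kb (horizontal, log axis) for assigned protein-coding genes of the wild-type list (93) and the null list, for all 21887 protein-coding genes (solid grey) and for the same genes weighted by length (dashed grey). Both assigned curves run near the dashed curve and to the right of the solid one.

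Reads at assigned regions were mostly near the lowest number listed, 11. The median was 14 reads in the wild-type list (quartiles 12.8 and 19, highest 1893) and 13 in the null list (quartiles 12 and 16, highest 1396). Regions with no gene had a median of 13 (quartiles 12 and 17, highest 593) and 14 (quartiles 12 and 17, highest 427). The shares of assigned regions with 20 or more reads were 24 of 100 in wild type (24%, interval 16.7 to 33.2) and 14 of 133 in null (10.5%, interval 6.37 to 16.9), where all listed regions gave 19.3% and 11.1%. Regions with no gene gave 12 of 87 (13.8%, interval 8.07 to 22.6) and 12 of 102 (11.8%, interval 6.86 to 19.4). Neither difference between assigned and unassigned regions passed Fisher's exact test (two-sided p = 0.0948 in wild type and 0.835 in null, adjusted p = 0.664 and 0.987). Among regions in 1 list, a setting chosen after the values were seen, 11 of 84 assigned and 1 of 72 unassigned wild-type regions had 20 or more reads (Fisher's exact p = 0.00612, not adjusted), against 5 of 117 and 3 of 87 in null (p = 1). Widths had a median of 750 bp for assigned and unassigned regions of both lists.

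**Figure D3:**
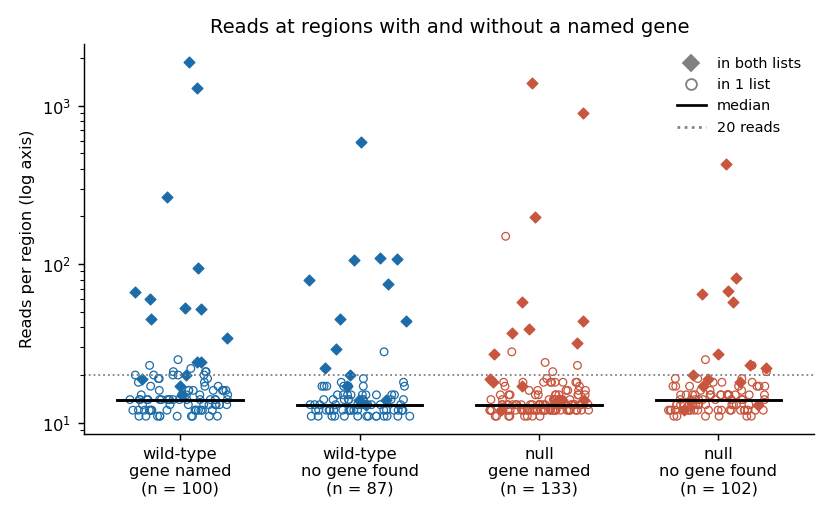
Reads per region (vertical, log axis) for regions with a named gene and with no gene found in each list; diamonds are regions in both lists, open circles regions in 1 list, black bars medians and the dotted line 20 reads. Medians were 14, 13, 13 and 14 from left to right, and the highest regions in each column were in both lists.

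A few predicted genes held most of the reads. In the wild-type list Gm10800 (chr2:98665801-98667750) held 1893 reads, Gm10801 (chr2:98661751-98664450) 1284 and Gm10718 (chr9:3021751-3024000) 267. The null list had 1396, 902 and 198 reads at the same 3, and 150 at Gm17535 (chr9:3034801-3036900), which was in the null list alone. These regions made up 66.1% of the 5208 reads at assigned regions in wild type and 57.6% of 4597 in null. The other 97 wild-type regions shared 1764 reads and the other 129 null regions 1951. As background, these stretches of mouse chromosomes 2 and 9 are known for collecting many reads in sequencing libraries of many kinds. Without an input library the part of this in the values was not tested.

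Regions in both lists were a minority with and without a gene. Overlap by at least 1 bp with a region of the other list was found for 16 of 100 assigned wild-type regions (16%, interval 10.1 to 24.4) and 16 of 133 assigned null regions (12.03%, interval 7.54 to 18.6), where all listed regions gave 16.6% and 13.2%. Regions with no gene gave 15 of 87 (17.2%, interval 10.7 to 26.5) and 15 of 102 (14.7%, interval 9.12 to 22.9). Fisher's exact test found no difference past the threshold (two-sided p = 0.846 and 0.565, adjusted p = 0.987 for both). The share of rows assigned to a gene was 53.5% in wild type (interval 46.3 to 60.5) and 56.6% in null (interval 50.2 to 62.8), also not past the threshold (Fisher's exact p = 0.555, adjusted p = 0.987).

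The 16 assigned regions in both lists included 11 genes other than predicted and clone-named ones, and the wild-type library had more reads at 10 of the 11 and the same number at 1. Chl1, a neural cell adhesion gene of the L1 family, had 95 wild-type and 58 null reads in a region 138 kb from its start, at 62.3% of the gene's length. Cdk5rap2, which encodes a centrosomal protein that anchors the microtubule-nucleating complex, had 67 and 39 reads, 31.8 kb from its start. Mdga2, an adhesion gene of synapses, had 60 and 44 reads, with a region that was wider in the null list (1650 against 1350 bp). In each of the 3, the wild-type value was the higher, by a ratio of 1.64 (exact 95% interval 1.17 to 2.31), 1.72 (1.14 to 2.62) and 1.36 (0.909 to 2.06).

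Ank1, which encodes an ankyrin that ties membrane proteins to spectrin, had 53 wild-type and 37 null reads. At Cdh23, a cadherin of sensory hair cells, the values were 52 and 27 reads, 250 kb from its start. Acacb, the mitochondrial-membrane acetyl-CoA carboxylase that makes malonyl-CoA, had 45 and 32 reads, 7.13 kb from its start. The remaining 5 had 15 to 24 wild-type and 12 to 18 null reads: Lamc3, a laminin chain gene, Mamdc2, a matrix protein gene, Pde1c, a calcium-dependent phosphodiesterase gene, Ndst4, a heparan sulfate-modifying enzyme gene, and Litaf, a gene of endosomal trafficking. Ndst4 had 17 reads in each library, the sole equal pair among the 16. The highest ratios of the 11 were 2.00 at Lamc3 (interval 0.962 to 4.39) and 1.93 at Cdh23 (interval 1.19 to 3.19), and both intervals include 1.40, the ratio summed over all 16 regions.

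**Figure D4:**
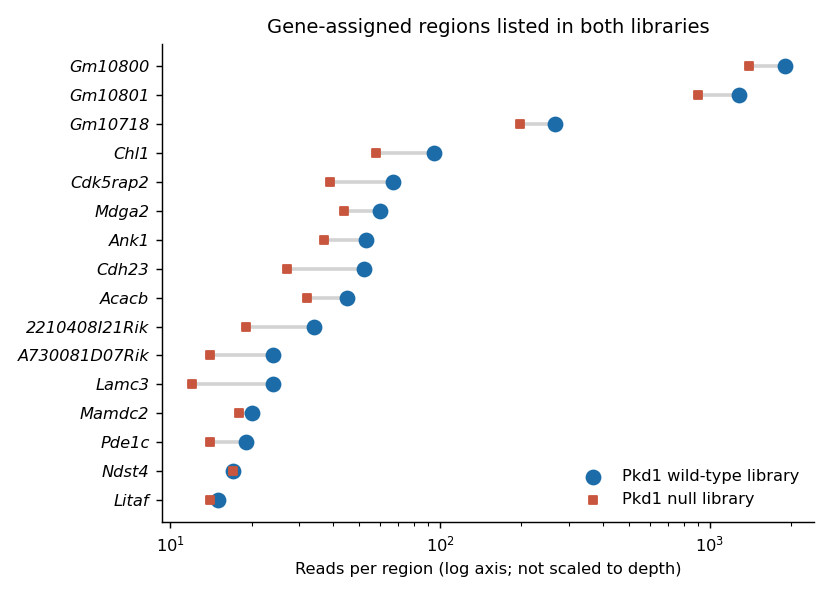
Reads per region (horizontal, log axis, not scaled to depth) in the wild-type (blue circles) and null (red squares) library at the 16 gene-assigned regions in both lists, ordered by wild-type reads. The wild-type point is to the right at 15 of 16 regions and coincides with the null point at Ndst4, where both are 17.

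Of the 5 predicted or clone-named genes in both lists, 2 had few reads: 2210408I21Rik (chr13:77438551-77439450) with 34 wild-type and 19 null reads, and A730081D07Rik (chr13:40989301-40990050) with 24 and 14.

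Summed over the 16 regions the libraries had 3969 and 2841 reads, a ratio of 1.40 (exact interval 1.33 to 1.47). At the 15 shared regions with no gene the ratio was 1.46 (interval 1.34 to 1.59, 1290 against 885 reads), with more wild-type reads at 13, the same number at 1 and fewer at 1 (13 against 23). The ratios did not differ past the threshold (Fisher's exact test on the 4 read sums, two-sided p = 0.409, adjusted p = 0.987). Because total depth is unknown, depth and occupancy cannot be told apart in either ratio. Without predicted and clone-named genes the 11 genes gave 1.50 (interval 1.29 to 1.73).

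By gene rather than by region, 19 genes were assigned in both lists, which is 19.0% of the 100 wild-type genes and 14.5% of the 131 null genes. For 16 the regions overlapped. For the other 3 they did not: the regions of Prpsap1, which encodes a partner of phosphoribosyl pyrophosphate synthetase, were 1.50 kb apart (16 wild-type and 14 null reads), those of Cacng3, a calcium channel gamma subunit gene, 21.3 kb apart (15 and 13 reads) and those of Zbtb16, a zinc finger repressor gene, 27.45 kb apart (14 and 13 reads). Ndst4 had a further null region of 12 reads 136 kb from the shared one, and the predicted gene Gm20388 had 2 null regions of 18 and 17 reads (chr8:120295351-120295950 and chr8:120328801-120329550).

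Regions in 1 list had few reads outside Gm17535. The 84 assigned regions in the wild-type list alone had a median of 14 reads and at most 25, and the 117 in the null list alone a median of 13. The protein-coding genes with most reads in wild type alone were Arhgap15 (25), Plekhg1 (23), the organic anion transporter gene Slc22a22 (22), and Prkdc, Lrrc8c and Ano2 (21 each). At 20 reads followed Ms4a13, Lrp1b, 4930525F21Rik, Csda and Spag17, which encodes a protein of the ciliary central pair. In null alone they were Xkr5 (28), Rbfox3 (24), Gnao1 (23), Wipf1 (21) and Lrch3 (19). At 18 reads followed Pkhd1, Ccdc6, a fusion partner of the RET kinase in thyroid cancer, Dock2, Mxi1, Grik3, Kcnab2, Wwox, an oxidoreductase gene at a common fragile site, and 1110037F02Rik, which encodes a subunit of the RNA adenosine methyltransferase complex. The genes tied at 20 and at 18 reads have no order among themselves. Each of these is a single region of one library, with no replicate.

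The functions of the assigned genes were read from 16 gene lists, which held 35 of the 100 wild-type and 49 of the 133 null regions. As background, 0.425% of the 21887 protein-coding genes were assigned a wild-type region and 0.530% a null region. Adhesion receptors and matrix genes had the largest counts relative to list size among the lists of over 100 genes. Of 210 cadherins and other adhesion receptors, 6 were assigned in wild type (2.86%), namely Chl1, Mdga2 and Cdh23 with Cntn1 (15 reads), Cntnap2 (14 reads) and Sdk2 (11 reads), and 5 in null (2.38%), with Bai3 (14 reads) and Pcdh11x (11 reads) beside the same 3. These genes are long, with a median of 102 kb, and their spans make up 5.42% of the summed span of protein-coding genes. They took 6.74% of the 89 wild-type and 4.46% of the 112 null regions that the authors gave as overlapping a protein-coding gene, shares close to that of their span. Overlap here and below is the authors' label, while the spans are those of RefSeq. Of matched regions of any class so labelled, 88 of 90 in wild type and 115 of 117 in null overlapped the RefSeq span. Of 161 matrix genes, 4 were assigned in wild type and 5 in null. They span 1.96% and took 4.49% (4 regions) and 5.36% (6 regions), and 3 regions in each list were the shared Lamc3, Mamdc2 and Ndst4. The others were Tnr, a tenascin gene (13 wild-type reads), Col7a1 and Adamtsl1 (13 and 12 null reads) and the further Ndst4 region. The list counts the enzyme gene Ndst4 and left out the matrix genes Frem2 (12 wild-type reads), Sparc and Impg1 (12 null reads each). The shares beside the span thus depend on how the list was drawn.

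Small GTPase regulators and cytoskeletal genes, as far as these uncurated lists hold them, came next in the null list. Of 371 small GTPase regulators, 3 were assigned in wild type, the Rac regulator Arhgap15 (25 reads), the guanine nucleotide exchange factor Plekhg1 (23 reads) and Dock1 (11 reads), and 7 in null, among them Gnao1, a subunit of a heterotrimeric G protein that the list also holds (23 reads), Dock2, the Rac exchange factor of leukocytes (18 reads), Arhgdia and Rnd3. Their spans are 3.13% of the total, against 3.37% of overlapping regions in wild type and 6.25% in null. The 389 cytoskeleton and motor genes held 3 in wild type (Ank1, Spag17 with 20 reads and Ttll13) and 7 in null, among them Ank1, the actin regulators Wipf1 (21 reads) and Wipf3 (14 reads), and Ank3 (12 reads). They span 3.33% and took 3.37% and 6.25%. The list left out further cytoskeletal genes, among them Hook2, Ndel1, Evl and Ttl in wild type and Mical2, Hydin and Spef1 in null. The counts of 3 and 7 thus depend on how the list was drawn. Of 469 protein kinase and phosphatase genes, 4 and 6 were assigned. The kinase of DNA break repair Prkdc (21 reads) and the transcription kinase Cdk12 (14 reads) were in the wild-type list, and the transcription kinase Cdk7 (12 reads) and the polarity kinase Mark2 (13 reads) in the null list. Cdk5rap2, which encodes no kinase, was in this list through its name, and so was the lipid kinase gene Pip5k1c (11 null reads). The list left out the kinase genes Pdpk1 (15 reads) and Lrrk2 (14 reads) and the phosphatase gene Epm2a (12 reads), all in wild type. The counts of 4 and 6 therefore show no difference between the lists in such genes.

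Channel and transporter genes, as far as these uncurated gene lists hold them, were assigned in equal number in both libraries. Of 310 ion channel genes, 4 were assigned in each (4.49% and 3.57% of overlapping regions against 3.65% of span). In wild type they were Ano2, a calcium-activated chloride channel (21 reads), Lrrc8c and Lrrc8d, subunits of volume-regulated anion channels that neighbour each other on chromosome 5 (21 and 17 reads), and Cacng3. In null they were Grik3, a kainate receptor (18 reads), Kcnab2 (18 reads), Cacng3 and Kcnj6 (12 reads). Of 537 transporter genes, 3 were assigned in each list, the highest being Slc22a22 (22 reads) in wild type and the urea transporter Slc14a1 (14 reads) in null. Left out were the channel complex gene Unc80 (12 reads) and the transporter-like gene Svopl (13 reads), both in null. The equal counts thus depend on how the gene lists were drawn.

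Genes of cystic disease, Wnt, cyclic nucleotide and cytokine signalling had 0 to 2 members each. Of 55 polycystin and cilium genes, 0 were assigned in wild type and 2 in null, Pkhd1, which encodes fibrocystin and is mutated in recessive polycystic kidney disease (18 reads, 46.3 kb from its start), and Ahi1, a gene of the cilium's transition zone (13 reads). The cilium list left out other assigned cilium genes. Among them were Spag17 (20 reads), Cspp1 (16 reads) and B230118H07Rik (13 reads) in wild type, and Hydin (15 reads) and Spef1 (11 reads) in null. The counts of 0 and 2 therefore show no difference between the lists in cilium genes. Of 67 Wnt genes, Ctnnb1 was assigned in wild type (12 reads) and Lef1, its DNA-binding partner, in null (14 reads). Pde1c in both lists and Pde4d (11 wild-type reads) were the 2 assigned of 72 cyclic nucleotide genes. Socs5 (11 wild-type reads) and the interleukin-6 receptor gene Il6ra (13 null reads) were those of 43 cytokine pathway genes. Among 14 genes of proteins reported as Smyd2 substrates 1 was assigned, Ctnnb1. Pkd1 and Smyd2 had 0 regions assigned to them.

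Genes of the uncurated transcription factor list had a smaller share than all genes in both libraries, a description without a test. The chromatin gene list held 1 assigned gene per library, too few to place it beside all genes. Of 945 transcription factor genes, 2 were assigned in wild type (0.212%), Gata6 and Zbtb16, and 3 in null (0.317%), Mxi1, Lef1 and Zbtb16, beside 0.425% and 0.530% of all protein-coding genes. Their spans are 4.59% of the total, against 1.12% and 1.79% of overlapping regions. The list left out other genes of transcription regulators, among them Scrt2 (13 reads), Gtf2ird2 (12 reads) and Csda (20 reads) in wild type and Camta1 (11 reads) in null. The smaller shares rest on 2 and 3 genes and depend on how the list was drawn. Of 68 lysine methyltransferases and demethylases, 1 was assigned, Setdb2 in null (12 reads), which is 1.47% of the list. The 238 chromatin and histone genes had 1 in each list (0.420%), the remodeller subunit Arid1b (11 wild-type reads) and Rtf1, and took 1.12% and 0.893% of overlapping regions against 0.851% of span. That list left out other chromatin genes, among them Phf20l1 (13 reads), Phf21a (11 reads) and Prmt10 (14 reads) in wild type. In null it left out Cecr2 (16 reads), Phip (12 reads) and Morc3 (12 reads). Its shares thus also depend on how the list was drawn. Olfactory, vomeronasal, taste and trace amine receptor genes, 1518 in all and short at a median of 0.951 kb, had 1 in wild type (Olfr449) and 2 in null (Olfr365 and Taar4).

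**Figure D5:**
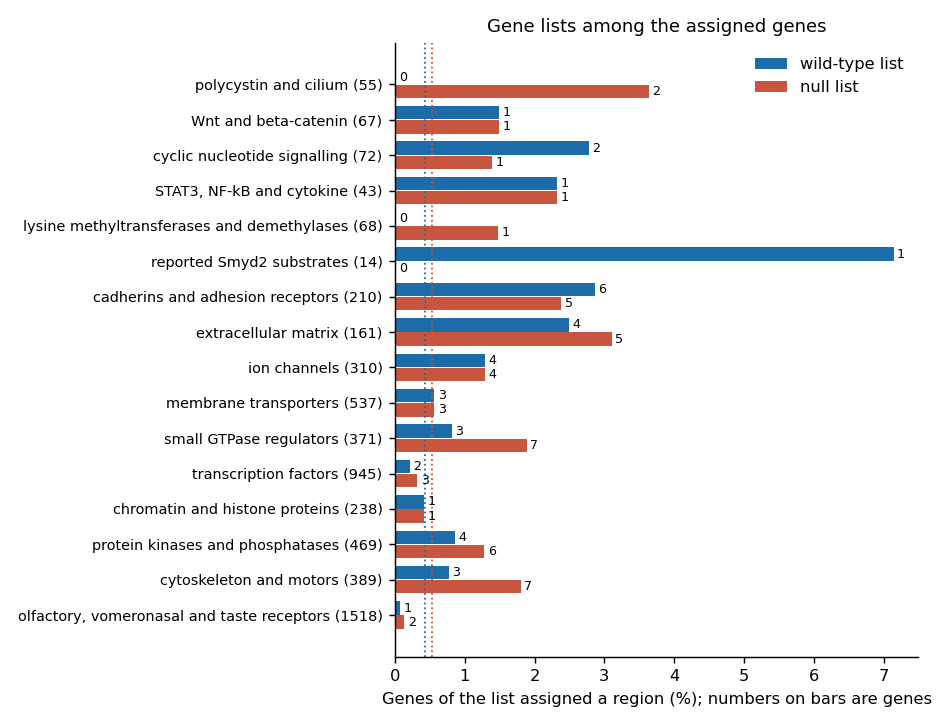
Share of the protein-coding genes of each of 16 lists (list size in parentheses) that were assigned a region in the wild-type (blue) and null (red) list, in %, with the number of genes on each bar. Dotted lines mark the shares over all protein-coding genes, 0.425% and 0.530%; bars of small lists rest on 1 or 2 genes, and the longest is 1 gene of 14.

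Further groups were formed after the names and values were seen and are given as a description. Genes of the centrosome, basal body and axoneme numbered 9: in wild type Cdk5rap2, Spag17, Cspp1, Ndel1, Hook2 and B230118H07Rik, a partner of ciliary transport (12 to 67 reads), and in null Cdk5rap2, Ahi1 and the axonemal genes Hydin and Spef1 (11 to 39 reads). Metabolic enzyme genes numbered 10, with Acacb in both lists, Elovl3, the bile acid enzyme gene Cyp27a1 and Me1 in wild type (14 to 45 reads), and Cyp2j9, Aldh9a1, Aadat, Accs, Gpd1l and Mccc2 in null (12 to 32 reads). Chromatin readers and modifiers by a wider reading numbered 9, among them Phf20l1, Phf21a and Prmt10 in wild type (11 to 14 reads) and Cecr2, Phip and Morc3 in null (12 to 16 reads). RNA polymerase and RNA-binding genes numbered 8, the highest being the cold shock gene Csda (20 wild-type reads) and the neuronal splicing gene Rbfox3 (24 null reads). Apart from Cdk5rap2 and Acacb none of the genes in these groups was in both lists, where 19.0% of all wild-type and 14.5% of all null assigned genes were. In groups formed after the values were seen, this does not set these genes apart.

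The regions with no gene were not all away from genes. In the RefSeq table, 16 of the 87 wild-type and 26 of the 102 null rows without a gene overlapped a gene of any class, and 4 and 6 overlapped a protein-coding gene. The rest lay at a median of 80.7 kb (wild type) and 79.6 kb (null) from the nearest protein-coding gene.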

How the data were processed

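Smyd2 ChIP-seq regions were listed for 2 libraries, 1 per Pkd1 genotype. Per the file headers, each deposited row gives a region, a gene with orientation and distance, and the log2 of a read number. Raising 2 to the authors' value gave a whole number in all 422 rows (relative tolerance 0.001), so reads are not scaled to depth, and total depth is unknown. The headers name differently numbered read files of the same lane, so whether each list used all reads of its library is not known. The deposited distances are other values, in bp per the file headers. Coordinates are of GRCm38 (named in the submitters' processing notes). No aligner or region caller is stated in the labels or headers.

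Genes and starts came from RefSeq tables of GRCm38.p6, matched by symbol or synonym on the same chromosome. They give no exons, so exon, intron and UTR positions were not analysed here. Shares carry Wilson 95% intervals, read ratios exact binomial ones, and shares were compared with Fisher's exact test, tested on simulated data, with Benjamini-Hochberg adjustment over 7 tests. All compare 2 lists. Members, lists, tests and alternatives were chosen with earlier results of these data known. Named were regions in both lists, the 10 single-list protein-coding regions with most reads per list (genes tied with the last were added after their values were seen), genes of the 16 lists, genes with several regions and the nearest and farthest regions beside a gene. Genes at a start, the longest and shortest genes and the groups said to be so were named after their values were seen. Names matched by pattern were not curated. Some genes of the groups are not reported here. Alternatives covered read thresholds, overlap, predicted genes and shared regions. Scripts ran in Python 3.11.15 with scipy 1.17.1, pandas 2.3.3, numpy 2.4.6 and, for figures, matplotlib 3.10.9.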

Additional observations from a re-analysis of the deposited data

How the results depend on the processing

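No paired analysis was possible because only 1 library stood for each genotype, which also left no library to leave out. Of 30 values under alternative settings (21 planned and 9 chosen after seeing the data), 28 stayed on the same side of an unadjusted p of 0.05 in Fisher's exact test, and 7 of those changed sign while past no threshold. The exceptions were both in the wild-type share with 20 or more reads: among regions in 1 list, assigned exceeded unassigned regions by 11.7 percentage points (Fisher's exact p = 0.00612), and by 11.4 without predicted genes (p = 0.00962). The cause was not tested. Counting predicted genes as no gene left 12.4% of assigned wild-type regions in both lists against 20.4% of the rest (Fisher's exact p = 0.17). With few reads per region, small differences in read number were not detectable.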
